A study of Oryza sativa with 12 samples.

Results

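Calcineurin B-like proteins (CBLs) are plant calcium sensors and CBL-interacting protein kinases (CIPKs) are the kinases they act through, and the transcripts of both families were followed in rice leaf libraries. A gene was taken when its name, its description or its Swiss-Prot name in the deposited table named calcineurin B, a CBL or a CIPK, and the transcript rows of each gene were summed. This found 71 genes among 39967. Of these, 30 reached an FPKM (fragments counted per kilobase of transcript, scaled to library size) of 1 or more in 3 or more of the 12 libraries, as did 22648 genes in all. The 30 are 7 CBL sensors, 19 CIPK kinases and 4 loci annotated on the strand opposite a CBL or CIPK gene. Of the sensors, Os03g0448500 has no CBL gene name and is counted through a matched row of 207 bases. Another 21 were listed at 0 in every library and 20 were above 0 but under the filter. Among the latter is BRITTLE CULM-LIKE 5 (Os06g0685100), matched by its annotation text, which is a COBRA-like protein and not a CBL or CIPK.

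A CBL protein binds calcium through EF hands and then docks on the NAF motif in the regulatory part of a CIPK, which releases the kinase from its own inhibition. The CIPKs are also known as SnRK3, a branch of the SNF1-related kinases. CBL-CIPK complexes set the activity of ion transporters: in rice, CBL1 with CIPK23 activates the potassium channel AKT1, and CBL4 (SOS3) with CIPK24 (SOS2) activates the sodium exporter SOS1 under salt stress.

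The libraries came from leaves of rice (Oryza sativa) of cultivar ZH11, the wild type (WT), and of phr2, labelled a knockout of PHR2, the MYB-type factor of phosphate (Pi) starvation signalling. All plants grew on 1/2MS medium. In the 2 no Pi groups, plants aged 3 weeks went to the same medium lacking Pi and leaves were taken on day 3, whereas the labels of the control groups say that they were untreated and give no harvest day. Lack of Pi, the transfer and any difference in age or harvest time therefore cannot be told apart. A response or Pi difference below means only the difference between these groups. There were 3 libraries in each of 4 groups, called WT control, WT no Pi, and likewise for phr2. The labels do not say whether replicates were separate plants or cultures, how the phr2 allele was made, or how many lines it stands for, so every p-value below measures only the spread between these libraries, which may be technical.

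Fragments recovered from the FPKM values numbered 10109727 to 13122430 per library. The PHR2 transcript (Os07g0438800) lay at an FPKM of 17.9 to 31.5 in the WT libraries and of 21.4 to 29.7 in the phr2 libraries, so its level does not tell the genotypes apart, and whether the allele leaves a transcript is not stated. The library labelled phr2 no Pi replicate 3 stood closer to WT libraries than to its own group: its Pearson r over all kept genes was 0.968 with WT no Pi replicate 2 and 0.950 with WT control replicate 3, against 0.862 and 0.879 with the other phr2 no Pi libraries. Over the 30 CBL and CIPK genes the same values were 0.931 and 0.901, against 0.661 and 0.743. It was not the only library nearer to another group over all kept genes. The r of phr2 control replicate 1 was 0.936 and 0.935 with phr2 no Pi replicates 1 and 2, against 0.901 and 0.863 in its own group. That of WT no Pi replicate 2 was 0.924 with WT control replicate 3, against 0.908 and 0.882 in its own group. WT control replicate 3 was at 0.950 with phr2 no Pi replicate 3, against 0.928 and 0.821 in its own group. The highest r of phr2 control replicate 2 and of phr2 no Pi replicates 1 and 2 also lay outside their group. Leaving out WT control replicate 3 changed the WT response most, to 8 of the 30 genes and 3155 genes in all. When phr2 no Pi replicate 3 was left out, 5 of the 30 passed for the averaged genotype difference, 3 in control medium and 1 without Pi. With it these were 2, 1 and 0, and the other 4 comparisons kept their number of calls. Over all genes 1546, 770 and 269 passed without it. With it 13 passed as higher and 264 as lower in the averaged difference, 18 and 133 in control medium and 0 without Pi. The rise was therefore not particular to the 30. This library was picked out for its likeness to WT, so smaller p-values for genotype differences without it are partly built in, here and below. In leaf tissue as a whole, fewer cells of a type and less RNA per cell cannot be told apart. Summed FPKM of 38 leaf photosynthesis marker genes, of which 24 passed the filter and 11 were listed at 0, was 97125 to 165979 in WT control, 38798 to 54559 in WT no Pi, 82604 to 124324 in phr2 control and 58584 to 121420 in phr2 no Pi. Of 26 root marker genes 13 passed and 4 were listed at 0, with sums of 323 to 572, 245 to 348, 175 to 281 and 280 to 324 in the same order. Of 6 guard cell marker genes 2 passed and 3 were listed at 0, with sums of 11.7 to 70.3, 10.6 to 21.2, 21.1 to 33.0 and 12.1 to 33.5. The part of these shifts in the results below was not tested.

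Differences were tested as log2(FPKM + 1) with limma, across all 22648 genes, and the threshold was an adjusted p (Benjamini-Hochberg) of 0.05. Each log2 difference is between group means of log2(FPKM + 1), a scale on which low genes appear to change less, and the SE is its standard error. In the WT response (WT no Pi against WT control) 2 of the 30 genes passed the threshold: the sensor gene CBL9 was higher and the kinase gene CIPK7 lower without Pi. Over all genes, 0.958% passed as higher and 1.40% as lower. In control medium CBL9 was also higher in phr2 than in WT, the only one of the 30 to pass there, beside 0.0795% of all genes that passed as higher and 0.587% as lower. With both Pi supplies averaged, CBL9 was higher and CIPK29 lower in phr2, beside 0.0574% of all genes higher and 1.17% lower. All 3 comparisons in which CBL9 passed include the WT control libraries, so they are not independent.

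CBL9 (Os01g0579600, chromosome 1, 22427835 to 22430779, plus strand, coordinates as in the table, whose rice assembly is not given in the sources used here) was the sensor gene that passed in 3 comparisons. Its FPKM was 3.00, 3.50 and 4.33 in the WT control libraries and 12.01, 15.98 and 20.1 in the WT no Pi libraries. In phr2 it was 23.7, 32.9 and 23.0 in control medium and 14.9, 26.6 and 15.5 without Pi. The 3 WT control libraries were the lowest of the 12, below every library of each other group. Group means were 3.61 ± 0.673 in WT control, 16.04 ± 4.06 in WT no Pi, 26.5 ± 5.51 in phr2 control, with 19.0 ± 6.60 in phr2 no Pi (SD, n = 3 each).

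WT no Pi stood 1.87 above WT control for CBL9 on the log2 scale (SE 0.34, limma adjusted p = 0.0332). In control medium, phr2 stood 2.57 above WT (SE 0.34, limma adjusted p = 0.0421). Averaged over both supplies the genotype difference was 1.39 (SE 0.24, limma adjusted p = 0.0410). In phr2 the difference between no Pi and control was −0.49 (SE 0.34, limma adjusted p = 0.998), or −0.38 without phr2 no Pi replicate 3, and the 2 groups' ranges overlapped. Without Pi, phr2 and WT differed by 0.21 (SE 0.34, limma adjusted p = 0.903), by 0.33 without that library and by −0.046 without phr2 no Pi replicate 2. The difference between the 2 genotypes' responses, the interaction, was −2.36 (SE 0.48) with a limma adjusted p of 0.422, or −2.24 (limma adjusted p = 0.601) without phr2 no Pi replicate 3, so a different response of CBL9 in phr2 and in WT did not pass the test.

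The CBL9 values rest on few fragments. They numbered 8, 11 and 17 in WT control, against 53, 79 and 85 in WT no Pi, and 115, 128 and 82 and then 68, 122 and 76 in the phr2 groups. Most of the signal came from a transcript row of 339 bases, with a mean FPKM of 14.9 over the 12 libraries, whereas the 657-base row had a mean of 1.35 and the remaining row was listed at 0. On the longest of these rows the counts were 0, 0 and 2 fragments in WT control, then 2, 15 and 12 in WT no Pi, 22, 6 and 10 in phr2 control, with 12, 33 and 15 in phr2 no Pi. The WT response of CBL9 kept an adjusted p under 0.05 in 5 of 12 fits that each left out a library, with a log2 difference of 1.70 to 2.05 and an adjusted p of 0.0145 to 0.160. It was lost when replicate 1 or 2 of WT control, replicate 1 or 3 of WT no Pi, phr2 control replicate 2, or phr2 no Pi replicate 1 or 2 was dropped. In control medium the genotype difference kept its call in 8 of these fits, with a log2 difference of 2.41 to 2.68, and lost it without WT control replicate 2 or 3 or phr2 control replicate 2 or 3. The averaged genotype difference kept its call in 3 of the 12, those that dropped replicate 1 of WT control, replicate 2 of WT no Pi or replicate 3 of phr2 no Pi. Without the last of these, the library that resembles WT, the limma adjusted p of CBL9 was 0.0407 for the WT response, 0.00350 for phr2 against WT in control medium and 0.00791 for the averaged genotype difference.

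**Figure D1:**
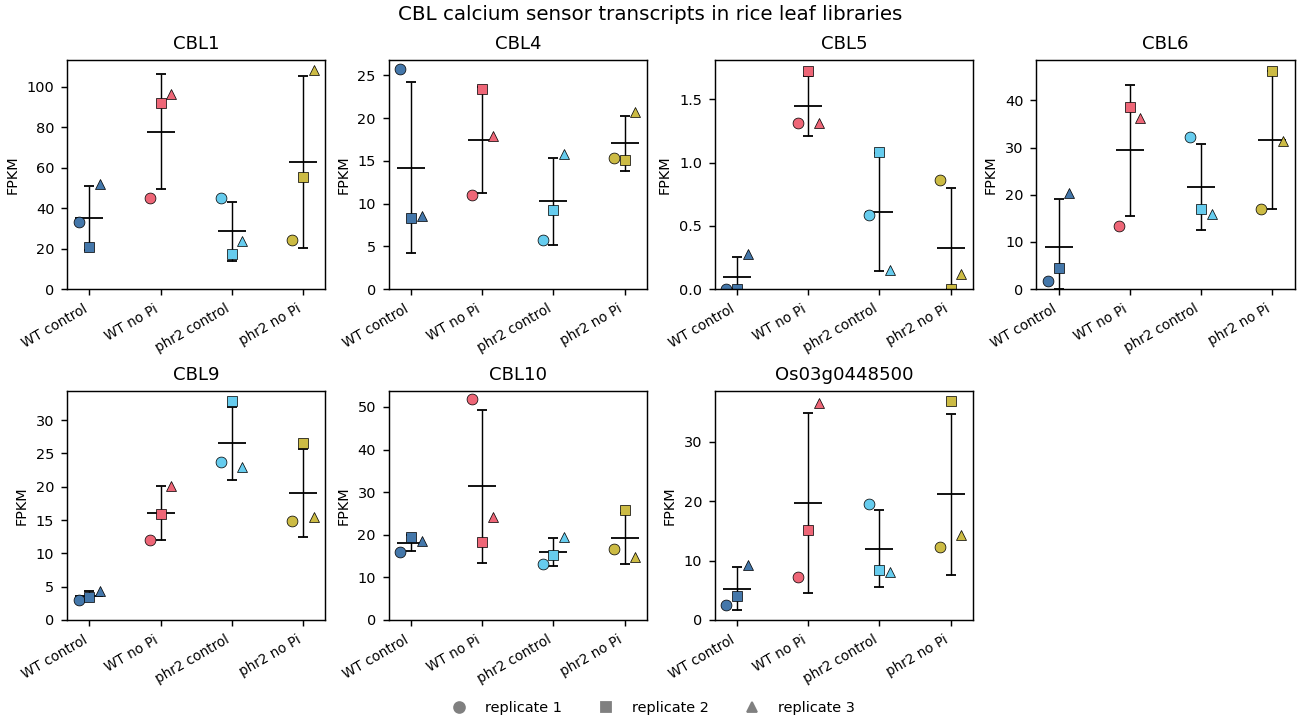
FPKM of the 7 CBL sensor genes that passed the filter, by group; points are libraries (marker shape gives the replicate number), horizontal lines are group means and bars are 1 SD (n = 3), with the axis starting at 0, where some bars are cut off. For CBL9 the WT control points (3.00 to 4.33) lie below all other points, whereas the groups of CBL1, CBL4, CBL6 and CBL10 overlap in part.

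CBL1 (Os10g0564800, chromosome 10), the partner of CIPK23 in potassium uptake, was the most abundant of the CBL genes in 10 of the 12 libraries. Its FPKM was 33.1, 20.8 and 52.1 in WT control, then 45.0, 92.1 and 96.3 in WT no Pi, 45.1, 17.2 and 23.8 in phr2 control, with 24.5, 55.3 and 109 in phr2 no Pi. The no Pi groups held the highest libraries, but in each genotype the ranges overlapped. Its log2 difference was 1.13 (SE 0.56, limma adjusted p = 0.232) in WT and 0.97 (SE 0.56, limma adjusted p = 0.998) in phr2, where it was 0.46 without phr2 no Pi replicate 3, the highest library. The libraries where another sensor led were WT no Pi replicate 1, led by CBL10, and phr2 control replicate 2, led by CBL9.

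CBL10 (Os01g0711500), annotated for the flooding response during seed germination, was at 16.03, 19.5 and 18.6 in WT control, then 51.8, 18.2 and 24.2 in WT no Pi, 13.05, 15.2 and 19.4 in phr2 control, with 16.7, 25.9 and 14.8 in phr2 no Pi. Only WT no Pi replicate 1 stood well above the other 11 libraries, and the log2 difference in WT was 0.63 (SE 0.39, limma adjusted p = 0.334). CBL4 (Os05g0534400), the SOS3 protein of salt tolerance, was at 25.7, 8.35 and 8.54, then 11.003, 23.4 and 18.0, then 5.71, 9.29 and 15.8, then 15.4, 15.1 and 20.8 in the same order of groups. Its highest library, WT control replicate 1, belonged to the group that also held 2 of its 3 lowest, and the WT difference was 0.41 (SE 0.49, limma adjusted p = 0.631).

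CBL6 (Os12g0162400), described as similar to a CBL3 protein, was at 1.68, 4.44 and 20.5 in WT control, then 13.4, 38.6 and 36.3 in WT no Pi, 32.2, 17.0 and 15.9 in phr2 control, with 17.0, 46.2 and 31.3 in phr2 no Pi. WT control replicates 1 and 2 were the lowest of the 12 libraries, and WT control replicate 3 lay inside the range of every other group. The WT difference was 2.03 (SE 0.70, limma adjusted p = 0.112). It passed only without WT control replicate 3, at 2.86 (limma adjusted p = 0.0171), as did the Pi difference averaged over genotypes. That library was the highest of its group, so the larger difference without it is partly built in. CBL5 (Os01g0598200) was scarce, at 0, 0 and 0.279 in WT control, against 1.31, 1.72 and 1.31 in WT no Pi, the latter from 11, 15 and 10 fragments. In phr2 it was 0.585, 1.08 and 0.154 in control medium and 0.864, 0 and 0.116 without Pi. Its WT groups did not overlap and differed by 1.17 (SE 0.32, limma adjusted p = 0.0720), but it passed the filter through the WT no Pi libraries and phr2 control replicate 2, so this split was partly built in by the filter. The same holds for every CBL5 value that sets WT no Pi against another group. Without Pi it was lower in every phr2 library than in every WT library, with a difference of −0.93 (SE 0.32, limma adjusted p = 0.541), and its interaction was −1.46 (SE 0.46, limma adjusted p = 0.516). Without phr2 no Pi replicate 3 these were −0.84 and −1.36.

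The seventh sensor gene, Os03g0448500, joins a matched row of 207 bases, at a mean FPKM of 4.16, to a row of 246 bases described only as a hypothetical gene, at a mean of 10.4. Its summed FPKM was 2.46, 4.01 and 9.29 in WT control, then 7.20, 15.2 and 36.6 in WT no Pi, 19.5, 8.42 and 8.09 in phr2 control, with 12.3, 36.8 and 14.3 in phr2 no Pi. WT control replicates 1 and 2 were the lowest, and the WT ranges overlapped, with a log2 difference of 1.60 (SE 0.63, limma adjusted p = 0.147). On the 246-base row the FPKM was 0, 0.877 and 7.08 in WT control, against 1.91, 12.3 and 29.1 in WT no Pi. On the matched row it was 2.46, 3.13 and 2.21, against 5.29, 2.92 and 7.49, and these ranges overlapped. Most of the WT difference therefore lay on the row that did not match.

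As a family, all 7 sensor genes, with Os03g0448500 counted among them, had a WT log2 difference above 0, and 1 of the 7 passed. Their median of 1.17 is the value of CBL5, which the filter favoured, and the median over all genes was −0.01. The summed CBL level was 82.0, 60.7 and 114 in WT control, then 142, 205 and 233 in WT no Pi, 139.8, 101 and 106 in phr2 control, with 102, 206 and 205 in phr2 no Pi. The WT groups did not overlap, and among the phr2 libraries the first no Pi replicate was below 2 of the 3 controls. CBL2 and CBL7 averaged an FPKM of 0.257 and 0.411 and CBL8 averaged 0.0110, all under the filter, and CBL3 was listed at 0, from which no absence is read.

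Among the kinase genes, summed FPKM ranged from 339 to 810 per library. CIPK7 (Os03g0634400, chromosome 3, 24226372 to 24227930, minus strand) had an FPKM of 133.7, 170.5 and 126 in the WT control libraries, against 32.0, 33.0 and 15.7 in WT no Pi. In phr2 it was at 18.5, 31.8 and 68.6 in control medium and at 14.97, 28.7 and 66.3 without Pi. All 3 WT control libraries were above the other 9, the reverse of the order for CBL9. Means were 143 ± 23.8, 26.9 ± 9.71, 39.6 ± 26.0 and 36.7 ± 26.5 (SD, n = 3 each). WT no Pi stood below WT control for CIPK7, with a log2 difference of −2.43 (SE 0.56, limma adjusted p = 0.0486).

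In control medium, phr2 stood at −2.01 against WT for CIPK7 (SE 0.56, limma adjusted p = 0.0992), which passed only in the fit without phr2 no Pi replicate 3 (limma adjusted p = 0.0474). The phr2 response was −0.16 (SE 0.56, limma adjusted p = 0.998), −0.70 without phr2 no Pi replicate 3 and 0.34 without phr2 no Pi replicate 1, so its direction rests on single libraries. The interaction was 2.27 (SE 0.79, limma adjusted p = 0.519), or 1.73 without phr2 no Pi replicate 3. The WT call was a narrow one: of the 12 fits that each left out a library it held in 2, those without WT control replicate 3 or phr2 no Pi replicate 3 (limma adjusted p = 0.0437 for the latter), and the difference ranged from −2.61 to −2.10. Over all 24 alternatives the call held in 5, with a limma adjusted p of 0.0329 to 0.209. It was lost at a pseudocount of 0.1 (0.0521), with no filter (0.0695), after rescaling (0.0645) or quantile normalization (0.0617), with voom (0.0557), with only the WT groups in the fit (0.158), with a replicate block (0.0586) and with no intensity trend (0.0522).

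CIPK29 (Os07g0678300, chromosome 7, 28710749 to 28712470, plus strand) was the most abundant of the 30 genes, with a mean FPKM of 116, and led the kinases in all 3 WT control libraries. It was at 253, 316 and 143 in WT control, then 185, 50.4 and 137 in WT no Pi, 61.2, 58.2 and 43.6 in phr2 control, with 57.5, 31.2 and 59.7 in phr2 no Pi. In control medium every phr2 library was below every WT library. Without Pi the ranges met through WT no Pi replicate 2, the library that phr2 no Pi replicate 3 resembles. Averaged over both supplies CIPK29 was lower in phr2, at −1.61 (SE 0.34, limma adjusted p = 0.0474), and it was at −2.05 in control medium (SE 0.48, limma adjusted p = 0.0686) and −1.17 without Pi (SE 0.48, limma adjusted p = 0.558), or −1.34 without phr2 no Pi replicate 3. The averaged call held in 3 of the 12 fits that left out a library, those that dropped replicate 1 of WT control, replicate 2 of WT no Pi or replicate 3 of phr2 no Pi, with a range of −1.88 to −1.42. Without phr2 no Pi replicate 3 the adjusted p in limma was 0.0207 for the averaged difference and 0.0475 in control medium.

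**Figure D2:**
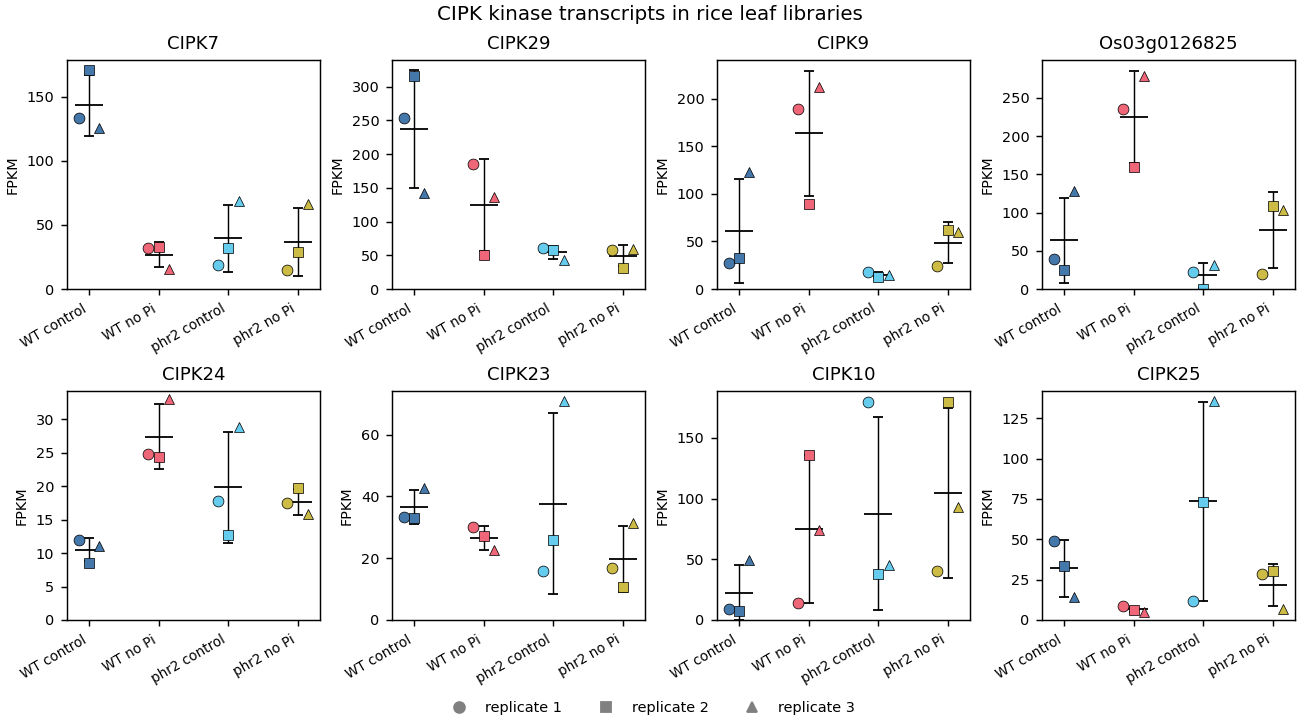
FPKM of 7 CIPK kinase genes and of Os03g0126825, the locus opposite CIPK9, by group; points are libraries, horizontal lines are group means and bars are 1 SD (n = 3), with axes starting at 0, where a bar that would go lower is cut off. For CIPK7 the WT control points (126 to 170.5) lie above all others, and for CIPK29 the phr2 points (31.2 to 61.2) lie low in both media.

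CIPK9 (Os03g0126800), annotated for ammonium-dependent root growth, was at 27.0, 32.3 and 123.4 in WT control, then 189.6, 88.9 and 212 in WT no Pi, 18.3, 12.7 and 14.8 in phr2 control, with 23.9, 62.2 and 60.04 in phr2 no Pi. In each medium every phr2 library was below every WT library, and in phr2 every no Pi library was above every control library. None of these differences passed. Averaged over both supplies the genotype difference was −1.67 (SE 0.41, limma adjusted p = 0.0666), and it passed without phr2 no Pi replicate 3 (limma adjusted p = 0.0355), without WT control replicate 1 (0.0337) or without WT no Pi replicate 2 (0.0486). The Pi difference averaged over genotypes was 1.58 (SE 0.41, limma adjusted p = 0.0947), and 0.0209 without WT control replicate 3. The responses of the 2 genotypes were 1.66 (SE 0.58) in WT and 1.51 (SE 0.58) in phr2, with an interaction of −0.15 (SE 0.82, limma adjusted p = 0.964), which changed sign in 6 alternatives. The WT response passed only without WT control replicate 3, the highest of its group, at 2.34 (limma adjusted p = 0.0181). Without phr2 no Pi replicate 3 the phr2 response was 1.302 and the Pi difference averaged over genotypes 1.48 (limma adjusted p = 0.154).

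A locus described as a hypothetical gene, Os03g0126825, lies on the opposite strand within CIPK9 and shares 4226 bases of span with it. Its FPKM was 39.2, 24.9 and 128 in WT control, then 236, 160.01 and 279 in WT no Pi, 22.8, 0 and 32.0 in phr2 control, with 19.8, 109 and 103 in phr2 no Pi. Its WT no Pi libraries were the highest of the 12, as were 2 of the 3 for CIPK9. Its Pi difference averaged over genotypes was 2.43 (SE 0.81, limma adjusted p = 0.148), or 2.24 (limma adjusted p = 0.232) without phr2 no Pi replicate 3. Whether counting used strand is not given in the sources used here, so reads of CIPK9 and of this locus cannot be told apart.

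CIPK24 (Os06g0606000), the SOS2 kinase, was at 11.9, 8.56 and 11.03 in WT control, then 24.8, 24.4 and 33.0 in WT no Pi, 17.8, 12.8 and 28.9 in phr2 control, with 17.5, 19.7 and 15.8 in phr2 no Pi. WT control was the lowest group and WT no Pi lay above both WT control and phr2 no Pi. The WT difference of 1.301 (SE 0.33, limma adjusted p = 0.0604) missed the threshold and passed it in 4 of 24 alternatives, among them the fit without WT control replicate 3 (limma adjusted p = 0.0395). The interaction was −1.39 (SE 0.47, limma adjusted p = 0.516), or −1.32 without phr2 no Pi replicate 3. CIPK23 (Os07g0150700), the AKT1 activator also annotated for drought and pollination, was at 33.5, 33.2 and 42.8 in WT control, then 30.2, 27.1 and 22.6 in WT no Pi, 16.02, 25.9 and 71.0 in phr2 control, with 16.8, 10.7 and 31.5 in phr2 no Pi. Its WT groups did not overlap but lay close, at −0.44 (SE 0.50, limma adjusted p = 0.617), a difference that turned to 0.087 after rescaling and 0.047 with voom, and its phr2 control libraries covered the widest range.

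CIPK10 (Os03g0339900) was at 9.28, 7.32 and 49.1 in WT control, then 14.4, 136 and 74.1 in WT no Pi, 179.6, 37.6 and 45.7 in phr2 control, with 40.6, 179.7 and 93.1 in phr2 no Pi. Single libraries set its group means, and the WT difference of 1.74 had an SE of 0.93 (limma adjusted p = 0.268). CIPK31 (Os03g0319400), annotated as a CIPK-like protein, had its lowest FPKM, 0, in WT control replicate 1 and its highest, 27.1, in WT no Pi replicate 2, with a WT difference of 1.43 (SE 1.20, limma adjusted p = 0.479). CIPK15, a kinase of the low-oxygen and sugar response in rice, was listed at 0 in every library, as were CIPK5, CIPK13, CIPK14, CIPK17 and CIPK28. CIPK14 and CIPK15 are near-identical copies, as CIPK32 and CIPK33 are close to each other, and how shared reads were assigned is not stated, so a 0 there is not read as absence. CIPK18 was just under the filter, at an FPKM of 1 or more in 2 libraries, and CBL5 was just inside it, in 4.

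The 4 opposite-strand loci are counted among the 30 because Swiss-Prot names on their rows match a CBL or CIPK. The sense genes CIPK5 and CBL3 were listed at 0 and CIPK1 averaged an FPKM of 0.0653, whereas the loci opposite them, Os01g0206650, Os03g0626900 and Os01g0292250, averaged 4.54, 9.99 and 14.3. Their spans share 1922, 6357 and 3664 bases with CIPK5, CBL3 and CIPK1 in the order of the loci. As for CIPK9, reads of these loci and of the sense genes cannot be told apart. No absence of a sense gene is read from these values. Os01g0206650 (chromosome 1, opposite CIPK5) was at 1.64, 1.40 and 1.18 in WT control, then 0.675, 3.25 and 1.73 in WT no Pi, 5.19, 3.84 and 3.48 in phr2 control, with 13.1, 16.01 and 2.97 in phr2 no Pi. Every phr2 library except phr2 no Pi replicate 3 was above every WT library. Without Pi the genotype difference was 1.87 (SE 0.53, limma adjusted p = 0.541) with that library and 2.52 (limma adjusted p = 0.0247) without it. Averaged over both supplies it was 1.48 (SE 0.37, limma adjusted p = 0.0736), and it passed without that library. Since that library was picked out for its likeness to WT, the larger differences without it are partly built in.

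Set beside all genes, the WT differences of the 30 lay mostly above 0. Their median log2 difference was 0.95 (0.71 to 1.17 over fits that each left out a library) against −0.01 over all genes, and 22 of the 30 were above 0: 7 of 7 sensors, 12 of 19 kinases with a median of 0.42, and 3 of 4 opposite-strand loci. With each library rescaled to the same FPKM sum the median was 1.34 against 0.41 over all genes. Without adjustment, 12 of the 30 had a limma p under 0.05, which is 40.0% against 25.0% of all genes. The ranges of the WT groups did not overlap for 6 of the 30 in the upward direction, where 11.9% of all genes did so, and for 4 in the downward direction, where 12.9% did. The 6 were CBL9, CBL5 (favoured by the filter), CIPK24, CIPK32, Os03g0626900 and Os03g0126825, and the 4 were CIPK7, CIPK25, CIPK23 and Os01g0292250. CIPK25 (Os06g0543400) was at 49.2, 33.4 and 14.0 in WT control, against 8.46, 6.40 and 5.18 in WT no Pi, with a difference of −1.97 (SE 0.81, limma adjusted p = 0.162). CIPK32 (Os12g0132200) went from 1.48, 0.418 and 2.72 to 5.16, 4.78 and 47.2, with WT no Pi replicate 3 far above the others, and a difference of 2.34 (SE 0.80, limma adjusted p = 0.112).

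**Figure D3:**
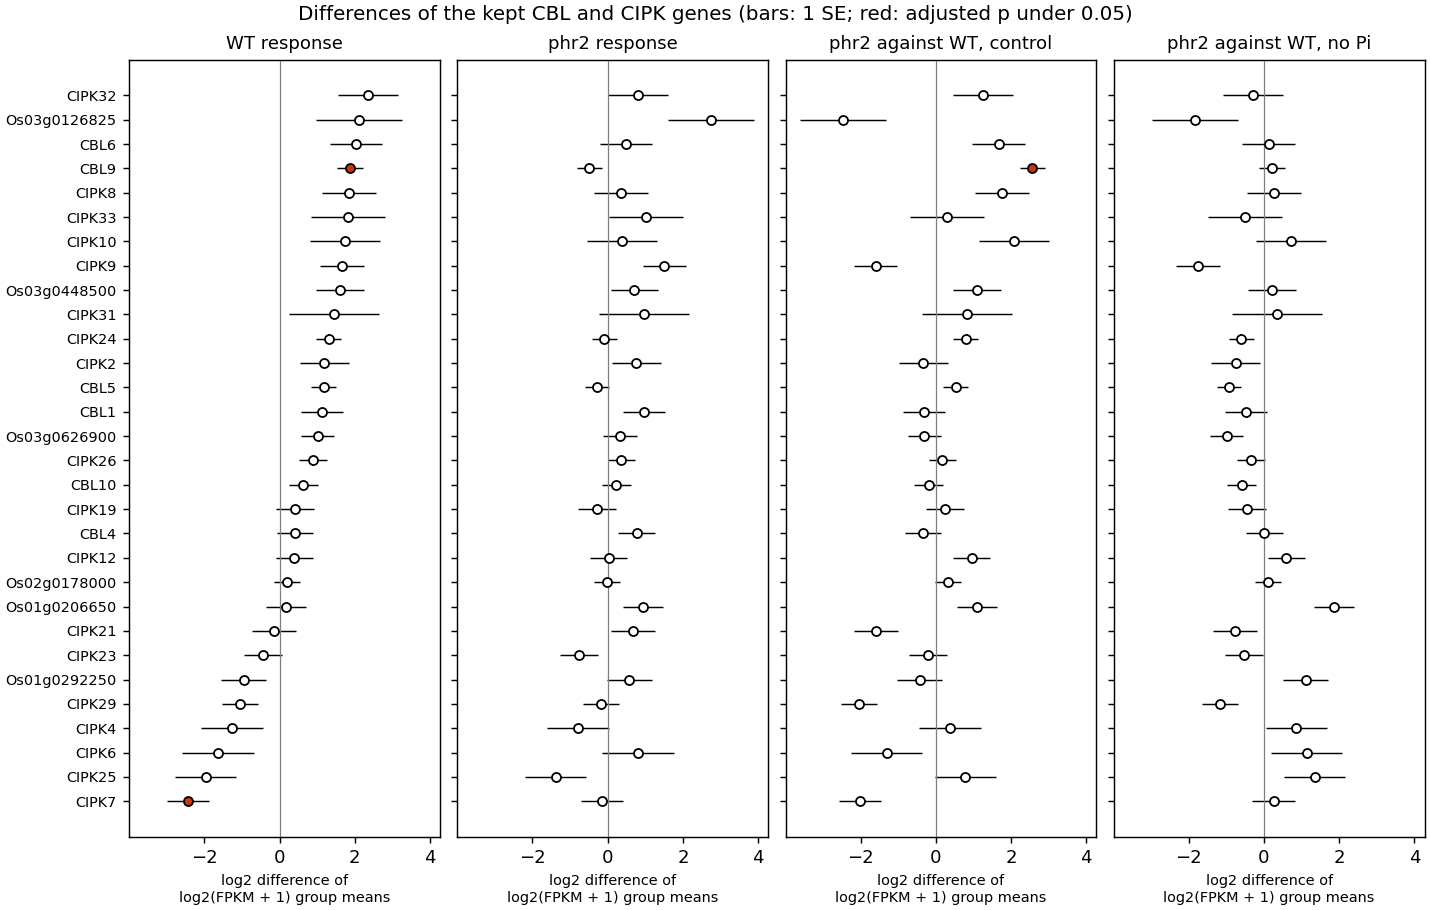
Log2 differences of the 30 kept CBL and CIPK genes in 4 comparisons (x axis, difference of group means of log2(FPKM + 1); y axis, genes ordered by the WT response); points are limma estimates, bars are 1 SE, and filled points passed at an adjusted p under 0.05. CBL9 is filled for the WT response (1.87) and for phr2 against WT in control medium (2.57), CIPK7 for the WT response (−2.43), and no point is filled in the other panels.

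Between phr2 no Pi and phr2 control none of the 30 passed the threshold, and 0% of all genes passed in limma. Of the 30, 2 (6.67%) had an unadjusted limma p under 0.05, against 3.91% of all genes, and limma voom on the recovered fragments called 0 of the 30. The median difference was 0.37 against 0.02 over all genes, but 0.13 without phr2 no Pi replicate 2. The ranges did not overlap for 2 genes, CIPK9 and CIPK21, both higher without Pi, where 4.47% of all genes were higher and 5.28% lower in this way. CIPK21 (Os07g0637000) was at 1.73, 1.87 and 2.04 in phr2 control, with 2.55, 2.74 and 6.30 in phr2 no Pi, with a difference of 0.68 (SE 0.58, limma adjusted p = 0.998), or 0.34 without phr2 no Pi replicate 3. An opposite-strand gene, Os07g0636900, at a mean FPKM of 2.13, covers all 4415 bases of the CIPK21 span. As for CIPK9, reads of CIPK21 and of that gene cannot be told apart, here and below. The 3 genes with the smallest p were CIPK9, Os03g0126825 at 2.75 (SE 1.15, limma adjusted p = 0.998) and Os01g0206650 at 0.94 (SE 0.53, limma adjusted p = 0.998). Without phr2 no Pi replicate 3 these last 2 stood at 2.37 and 1.59.

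In control medium, 9 of the 30 had an unadjusted limma p under 0.05 between the genotypes (30%, against 18.5% of all genes), with a median difference of 0.27 against 0.02. That median fell to 0.03 when WT control replicate 2 was left out and turned to −0.06 when phr2 control replicate 3 was, so its sign rests on single libraries. Ranges did not overlap for 5 genes higher in phr2 (CBL9, CIPK24, CIPK12, CIPK32 and Os01g0206650), beside 9.18% of all genes, and for 4 lower in phr2 (CIPK29, CIPK7, CIPK9 and CIPK21), beside 11.8%. CIPK21 was at 2.48, 6.63 and 23.3 in WT control, so that all 3 phr2 control libraries were lower, with a difference of −1.59 (SE 0.58, limma adjusted p = 0.185). CIPK12 (Os01g0759400), tied in rice to abiotic stress tolerance, was at 1.72, 2.73 and 2.09 in WT control and 5.35, 6.47 and 3.80 in phr2 control, with a difference of 0.95 (SE 0.49, limma adjusted p = 0.322).

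Without Pi, none of the 30 passed between the genotypes in limma, as 0% of all genes did, 5 (16.7%, against 8.67% of all genes) had an unadjusted p under 0.05, and voom called 0. The median difference was −0.14 against −0.01, and it turned to 0.15 without WT no Pi replicate 3 and to 0.075 without phr2 no Pi replicate 1. Without phr2 no Pi replicate 3 it was −0.06, and 4 of the 30 differences changed sign. Ranges did not overlap for CIPK6, higher in phr2, where 5.96% of all genes were, and for CIPK9, CIPK21, CIPK24, CBL5 (favoured by the filter) and Os03g0126825, lower in phr2, where 5.46% were. CIPK6 (Os08g0441100) was at 5.39, 2.64 and 1.60 in WT no Pi and 6.21, 12.8 and 5.43 in phr2 no Pi, a difference of 1.14 (SE 0.95, limma adjusted p = 0.772), so its separation was slight.

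The interaction was not past the threshold for any of the 30 or for any other gene (0%) in limma; 4 of the 30 (13.3%, against 8.84% of all genes) had an unadjusted p under 0.05 and voom called 0. The median interaction was −0.38 (−0.48 to −0.17 over fits that each left out a library) against 0.02 over all genes. The 3 genes with the smallest p were CBL9, CBL5 and CIPK24, described above, each with a negative value. For CBL5, which is also among the 4, that sign was favoured by the filter. The Pi difference averaged over genotypes passed for none of the 30 and for 0.0530% of all genes. Of the 30, 11 (36.7%, against 20.2% of all genes) had an unadjusted limma p under 0.05 and voom called 0, and the smallest p belonged to CIPK9, CIPK7 at −1.29 (SE 0.40, limma adjusted p = 0.129, or −1.57 without phr2 no Pi replicate 3) and Os03g0126825. For the averaged genotype difference 8 of the 30 (26.7%, against 17.3% of all genes) had an unadjusted limma p under 0.05. The median was −0.08 against 0.02, and it ranged from −0.18 to 0.16 over fits that each left out a library.

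**Figure D4:**
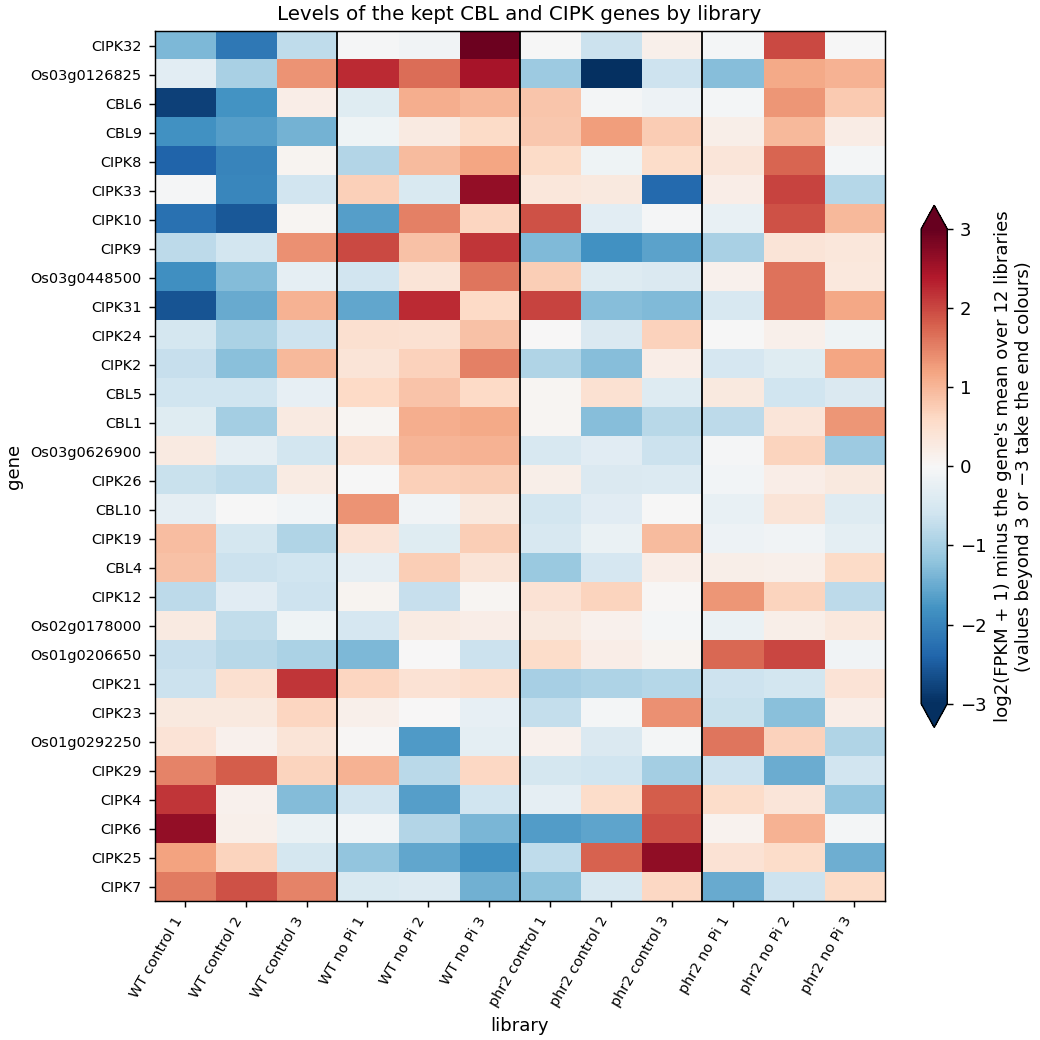
Heat map of log2(FPKM + 1) minus the gene's mean over the 12 libraries, for the 30 kept genes (rows, ordered by the WT response) in each library (columns, groups parted by lines); red is above and blue below the gene's mean, and values beyond 3 or −3 take the end colours. CBL9 is blue in all 3 WT control libraries and near or above its mean elsewhere, CIPK7 is red in the same 3, and WT control replicate 3 is above the mean for CIPK9, CIPK31 and CIPK2.

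Genes of the pathway around CBLs and CIPKs were counted from 11 lists: potassium channels, HAK potassium transporters, SOS1 and other sodium/proton antiporters, ammonium transporters, NRT1.1-type nitrate transporters, RBOH oxidases, calcium-dependent protein kinases (CDPKs), calmodulin and calmodulin-like proteins (CMLs), SnRK1 and SnRK2 kinases, calcium channels and pumps, and type 2C protein phosphatases (PP2Cs), which bind some CIPKs and counter them. Together they held 294 genes that passed the filter. In the WT response 1 rose and 4 fell (1.70%, against 2.36% of all genes), and the median was 0.02. In control medium 0 were higher and 5 were lower in phr2 (1.70%, against 0.667% of all genes, median −0.12), and averaged over both supplies 0 were higher and 8 lower (2.72%, against 1.22%, median −0.03). None of the 294 passed in the other 4 comparisons in limma. The gene Os01g0794650, counted among the 4 and among the 5, passed the filter only through the WT control libraries, so its calls were built in.

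Among these lists, that of calmodulin and CML genes, calcium sensor relatives of the CBLs, held most of the lower calls in phr2. Its word match also took in Os03g0628800, which Swiss-Prot names a NAD kinase. Of 44 genes kept on that list, 4 were lower in phr2 in control medium (median −0.58) and 7 averaged over both supplies (median −0.40), with none higher, beside 0.587% and 1.17% of all genes lower. CML10 (Os01g0949500) went from an FPKM of 307 ± 141 in WT control to 50.6 ± 19.2 in phr2 control (SD, n = 3 each), a log2 difference of −2.52 (SE 0.45, limma adjusted p = 0.0428). CML12 (Os01g0604500) went from 51.1 ± 25.2 to 5.98 ± 0.793, at −2.78 (SE 0.51, limma adjusted p = 0.0433). CML18 (Os05g0223000), similar to the touch-induced TCH2 of Arabidopsis, went from 1096 ± 839 to 126 ± 19.3, at −2.85 (SE 0.57, limma adjusted p = 0.0491). For each of these 3 the phr2 control and WT control ranges did not overlap. CML27 (Os03g0331700) was lower in phr2 averaged over both supplies, at −2.57 (SE 0.44, limma adjusted p = 0.0410). In fits that each left out a library the control medium calls held in 3 of 12 for CML10 and CML12 and in 2 of 12 for CML18, and the averaged call of CML27 in 3 of 12.

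In the WT response the calls on these lists were spread. The sodium/proton exchanger gene Os01g0794650 fell from an FPKM of 5.66 ± 4.17 to 0.296 ± 0.293 (log2 difference −2.21, SE 0.42, limma adjusted p = 0.0345), and it was also low in phr2 control, at 0.376 ± 0.393 (−2.14, SE 0.42, limma adjusted p = 0.0486). It passed the filter only through the WT control libraries, at 2.96, 10.5 and 3.55, with every other library under 1, so both calls were built in by the filter. Os03g0628800, named a calmodulin calcium-dependent NAD kinase by Swiss-Prot, fell from 79.7 ± 21.7 to 19.9 ± 10.6 (−2.03, SE 0.37, limma adjusted p = 0.0332). The CDPK-related kinase gene Os07g0619800 fell from 24.9 ± 14.9 to 3.36 ± 2.46 (−2.59, SE 0.58, limma adjusted p = 0.0456). The PP2C genes moved both ways, with Os01g0656200 falling (−2.28, SE 0.48, limma adjusted p = 0.0440) and Os04g0403701 rising from 18.3 ± 15.9 to 90.7 ± 24.1 (2.54, SE 0.56, limma adjusted p = 0.0442). A further PP2C gene, Os12g0198200, was lower in phr2 averaged over both supplies (−3.29, SE 0.68, limma adjusted p = 0.0461). In fits that each left out a library these calls held in 2 to 5 of 12.

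The lists of CBL-CIPK targets other than the antiporters held no call. Neither did those of SnRK1 and SnRK2 kinases and of calcium channels and pumps, which are not target lists. Of 15 potassium channel genes kept, 23 HAK transporters, 5 ammonium transporters, 6 NRT1.1-type transporters, 9 RBOH oxidases, 16 SnRK1 and SnRK2 genes and 62 calcium channels and pumps, none passed in any of the 7 comparisons in limma. Their median WT log2 differences were −0.18, 0.11, −0.75, 0.17, −0.13, −0.21 and 0.39 in that order. Of 6 antiporters, 29 CDPKs and 84 PP2Cs kept, the WT medians were 0.24, 0.20 and −0.02, and that of the calmodulin list was −0.25.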

How the data were processed

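Leaf mRNA of 12 rice libraries was measured by RNA sequencing. The authors deposited 1 table of FPKM with 46947 transcript rows, 2103 of them unannotated. Tools named in the submitters' processing notes are Bowtie 0.12.2, HISAT2 2.0 and StringTie 1.3.0. Those notes name mm8, which is a mouse assembly, although every annotated row has a rice identifier. Which rice assembly was used, and whether counting was stranded, is not given in the sources used here.

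FPKM times row length was a whole multiple of 1 fragment's worth for at least 99.98% of values at a tolerance of 0.01, which gave fragments per library. The size by which the FPKM values were scaled was 0.674 (WT control replicate 1) to 1.21 (WT no Pi replicate 2) times the fragments, and FPKM therefore does not follow depth alone. Rows were summed per gene, keeping genes that reached an FPKM of 1 in 3 or more libraries. Log2(FPKM + 1) was tested in R 4.3.3 with limma 3.58.1 (trend in the variance), using 4 group means over 12 libraries (8 residual and 3.78 prior degrees of freedom), no replicate block and Benjamini-Hochberg adjustment over all 22648 genes in each of 7 comparisons. The fit was tested on simulated data, drawn for each gene independently. Those data lack the likeness between libraries described above, so they say nothing on how stable the calls are. Figures used Python 3.11.15 and matplotlib 3.10.9.

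The genes, lists and tests were chosen with earlier results of these data known. Named are genes that passed, the 3 with the smallest p per comparison, all kept CBLs, the 5 highest means, CIPK15, CIPK23, CIPK24 and CIPK31, and at most 3 passing genes per list and comparison; other genes were chosen after their values were seen. Alternatives covered the pseudocount, the filter, the scale, the transcript sum, the groups in the fit, a replicate block, the trend and left-out libraries.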

Additional observations from a re-analysis of the deposited data

How the results depend on the processing

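Of the 30 genes 2, 1 and 2 passed (WT response, phr2 against WT in control medium, genotype averaged over supplies), against 1, 1 and 1 at a pseudocount of 0.1 and 1, 1 and 0 with no filter on low values. After rescaling to an equal FPKM sum 2, 0 and 0 passed, after quantile normalization 1, 1 and 0, with voom on the recovered fragments 2, 0 and 0, and with no intensity trend 1, 1 and 1. After rescaling and with voom the 2 in WT were CBL9 and CIPK24, so 1 was kept, CIPK7 was lost and 1 was new. With only the groups compared 0 passed in WT. Without WT control replicate 1 and phr2 no Pi replicate 3 together 0, 2 and 5 passed, and without WT no Pi replicate 2 and phr2 no Pi replicate 3 together 2, 2 and 4, with 1 for phr2 against WT without Pi in both cases. Directions were compared for the values printed for single genes. The WT difference of CIPK23 turned to 0.087 after rescaling and 0.047 with voom. The interaction of CIPK9 turned to 0.042 without the first of these library pairs. Leaving out each library in turn, it ranged from −0.83 to 0.29, the phr2 response of CIPK7 from −0.70 to 0.34, and the CBL9 difference between the genotypes without Pi from −0.046 to 0.38. No other of these values reversed. Over all genes the counts of 534, 151 and 277 became 86, 6 and 0 with no filter, 1094, 0 and 0 after rescaling, 241, 5 and 1 after quantile normalization, 959, 0 and 0 with voom, and 0 in WT and 274 between the genotypes in control medium with only the groups compared. They became 114, 1178 and 1974 without the first of those 2 library pairs, and 705 and 1661 between the genotypes without the second. Between the genotypes without Pi, 641 and 449 genes passed without these pairs, against 0. For the phr2 response 1 gene passed with no filter or only the groups compared, against 0. The Pi difference averaged over genotypes went from 12 genes to 1 at a pseudocount of 0.1, 3 with no filter, 5 with voom, and 2 and 285 without the pairs.

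Leaving out each library in turn gave 0 to 8 of the 30 genes for the WT response, 0 to 3 for phr2 against WT in control medium, 0 to 1 without Pi, 0 to 5 for genotype averaged and 0 to 2 for Pi averaged, and 0 for the phr2 response and the interaction. Over all genes the ranges were 0 to 3155, 0 to 770, 0 to 269, 0 to 1546 and 1 to 1742 in that order, 0 to 33 for the phr2 response and 0 to 26 for the interaction. The 8 came without WT control replicate 3 and were CBL9, CIPK7, CBL5 (favoured by the filter), CBL6, CIPK24, CIPK26, CIPK8 and CIPK9. An arm with 2 libraries borrows its spread from the other groups.

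The r of deviations from group means ran from −0.43 to 0.30 between same-numbered libraries and from −0.45 to 0.35 between differently numbered ones. Replicate 1 of WT control, WT no Pi and phr2 no Pi went together (0.26, 0.27 and 0.30). Replicate 1 of phr2 control went against them (−0.34, −0.43 and −0.24). Whether same-numbered libraries share a batch or a pairing cannot be told from these values, and the labels do not say. With a replicate block 1, 0 and 0 of the 30 genes passed, and 174, 0 and 0 genes in all, with 1 for the Pi difference averaged over genotypes.

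Rescaling moved the median of all genes to 0.41 in the WT response, 0.33 for phr2 against WT in control medium, 0.17 for genotype averaged, 0.26 for Pi averaged and −0.32 for the interaction, and voom to 0.48, 0.45, 0.27, 0.33 and −0.35. The median of the 30 genes for genotype averaged was −0.08 and turned to 0.09 and 0.15 under these and 0.07 after quantile normalization, each below the median of all genes. Depth limits CBL9, CBL5, CBL6, Os03g0448500 and Os01g0206650, among others, each of which had fewer than 20 fragments in at least 1 library. The causes of these shifts were not tested.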
